A study of Mus musculus with 8 samples.

Results

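Transforming growth factor-β (TGF-β) signals through a short relay of receptors and SMAD proteins, and 10 genes of that relay are described here in regulatory T (Treg) cells of mice with and without a deletion in the forkhead factor gene Foxp1. They are the ligand gene Tgfb1, the receptor genes Tgfbr1, Tgfbr2 and Bmpr2, the signal-carrying SMADs Smad2, Smad3 and Smad4, and 3 genes that dampen the pathway, Smad7, Smurf1 and Ski. They were taken by gene symbol from the deposited table of read counts, which holds 27594 genes. All 10 were found once each and passed the filter on low counts, which kept 14540 genes.

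In this pathway the ligand binds the type II receptor TGFBR2, which activates the type I receptor TGFBR1, and the active complex phosphorylates SMAD2 and SMAD3. These join SMAD4 and enter the nucleus to change transcription. SMAD7 blocks the receptors and recruits ubiquitin ligases such as SMURF1, SKI represses transcription by SMAD complexes, and BMPR2 is a type II receptor for the related bone morphogenetic proteins. In T cells TGF-β restrains activation, can induce Foxp3, and raises the integrin chain CD103.

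Treg cells of C57BL/6 mice aged 6 to 8 weeks were sorted, from spleen and from peripheral lymph nodes, into resting (rTreg) cells and activated (aTreg) cells, both CD4+YFP+, by surface markers that include CD44, low in the former and high in the latter. All mice carried the Foxp3-YFP-Cre allele, which makes YFP and Cre recombinase from the Foxp3 locus, so the controls carry Cre too. WT mice had that allele alone and cKO mice were Foxp1fl/fl as well, so that Cre can remove the loxP-flanked part of Foxp1 in cells that express Foxp3. The 8 libraries of total RNA form 4 groups of 2 replicates: WT rTreg, cKO rTreg, WT aTreg and cKO aTreg. The number of mice behind a library is not given in the sources used here, so p-values measure the spread between these samples. Levels are in CPM, the count scaled to library size with TMM factors, unless they are called FPKM, which is also scaled to gene length. A gene is said to rise, to fall or to be called where its adjusted p was under 0.05 in edgeR's quasi-likelihood test with the replicate number as a block.

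The libraries held 6373170 to 15268623 counts, with a median of 12327710. The replicate numbers differ in sex. Xist had at most 3 counts in each library of replicate 1 and 15098 to 21822 in each of replicate 2. The 2 libraries of a group thus came from different mice, and the replicate block also carries sex. The targeted gene Foxp1 was at 353.5 and 384 CPM in WT rTreg cells and 342 and 338 CPM in the libraries labelled cKO rTreg, a log2 fold change of -0.12 (SE 0.0938, adjusted p = 0.46). In aTreg cells it was at 234.5 and 230.3 CPM in WT and 126 and 102 CPM in cKO, a log2 fold change of -1.03 (SE 0.096, adjusted p = 0.00194). A count over the whole gene includes the exons that Cre leaves in place, so it does not show whether the flanked part was removed, and every direction given for cKO rTreg cells rests on the label. The Treg and CD4 T cell markers Cd3e, Cd4, Foxp3, Il2ra, Ctla4 and Ikzf2 were all detected, at a summed 2790 to 4320 CPM.

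In the resting cells labelled cKO, 5 of the 10 genes fell and 0 rose, while 5.45% of all genes tested were called lower and 6.57% higher. The 10 were chosen with earlier results of these data known, so setting them beside such shares is a description and not a test. Bmpr2 was at 0.488 and Smurf1 at 0.645 of the WT level, and Smad7 (0.670), Tgfbr1 (0.798) and Smad3 (0.846) fell by less. In activated cells 1 gene fell, Smurf1, to 0.723 of WT, while 2.77% of all genes were called lower. Between subsets, Bmpr2, Tgfbr1 and Smad3 were higher in activated cells of both genotypes, where 18.2% of all genes in WT and 21.9% in cKO cells were called higher. Smad7, Smad4 and Smurf1 were lower in both, where 13.6% and 18.2% were called lower.

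**Figure D1:**
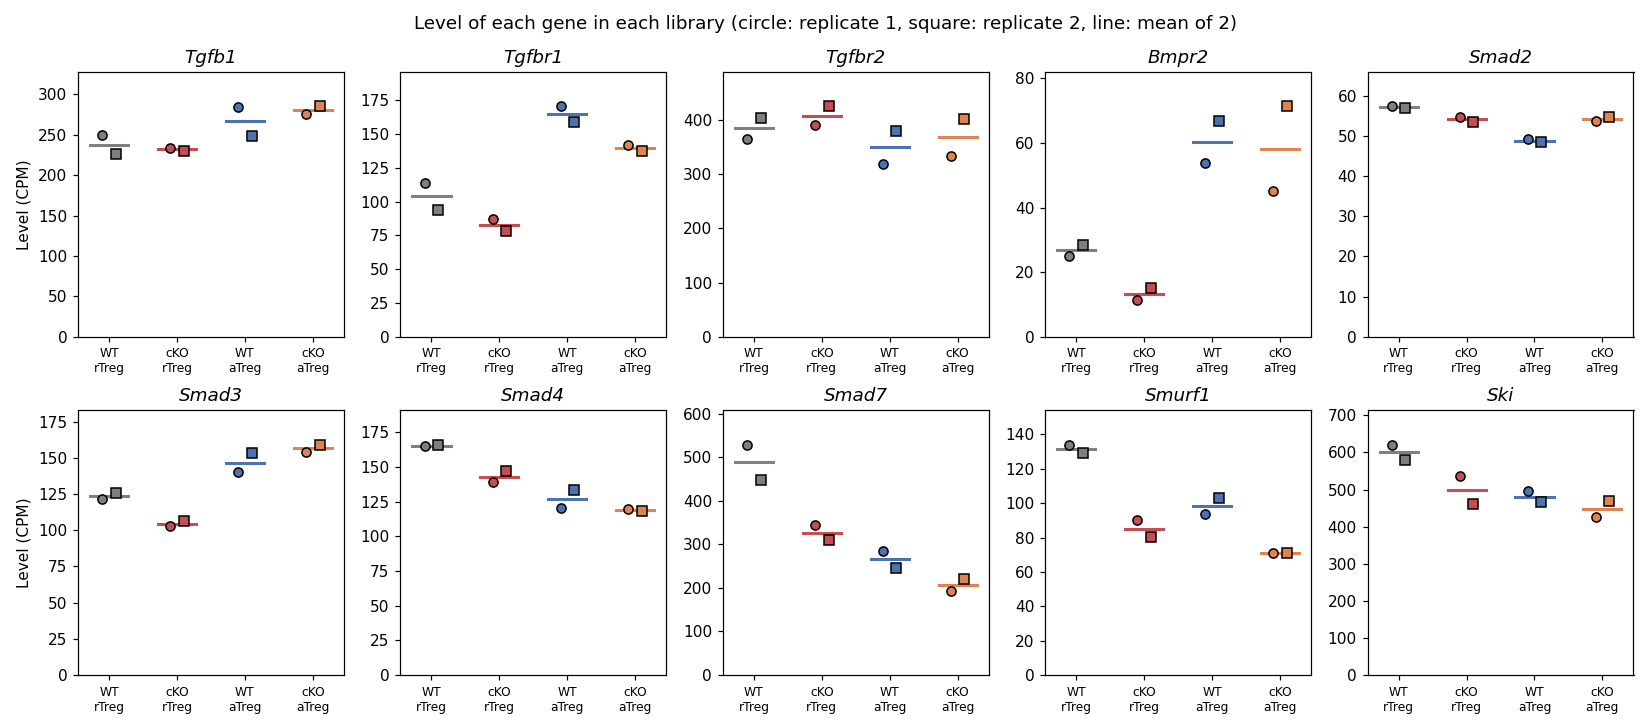
Level of each of the 10 genes in each of the 8 libraries, in CPM on axes that start at 0, by group and replicate number, with a line at the mean of each group's 2 libraries. Bmpr2 is lowest in the libraries labelled cKO rTreg (11.3 and 14.95 CPM), and Smurf1 is lower in cKO than in WT libraries in both subsets.

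The first comparison asked how the relay differs between genotypes in resting cells. A change of at least 1.5-fold as well was met downward by 2 of the 10, Bmpr2 and Smurf1, and by 2.70% of all genes. Both cKO libraries lay below both WT libraries for 8 of the 10 and for 22.3% of all genes. The median log2 fold change was -0.25 over the 10 genes and 0.0029 over all genes tested. In bulk RNA, fewer cells of a kind and less RNA per cell cannot be told apart.

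Of the receptors, Bmpr2 (chr1:59763400-59879014, plus strand, GRCm38) was at 25.1 and 28.4 CPM in WT rTreg and 11.3 and 14.95 CPM in cKO rTreg cells, the latter from 71 and 207 counts. The groups did not overlap, and the log2 fold change was -1.04 (SE 0.136, adjusted p = 0.00416), with -1.15 between the replicate 1 libraries and -0.93 between those of replicate 2. Tgfbr1, the type I receptor for TGF-β (chr4:47353222-47414931, plus strand), was at 114 and 94.0 CPM in WT and 87.0 and 78.4 CPM in cKO. These groups were apart too, with a log2 fold change of -0.33 (SE 0.073, adjusted p = 0.029). Tgfbr2, the type II receptor (chr9:116084293-116175360, minus strand), was at 366 and 404 CPM in WT and 390.5 and 425 CPM in cKO. Its groups overlapped and it did not pass, with a log2 fold change of 0.084 and a 95% interval of -0.053 to 0.22.

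The ligand gene Tgfb1 (chr7:25687002-25705077, plus strand) was at 249.2 and 226 CPM in WT and 234 and 229.6 CPM in cKO rTreg cells. The cKO libraries lay between the WT libraries, and the log2 fold change was -0.033 (95% interval -0.20 to 0.13, adjusted p = 0.808).

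Of the signal-carrying SMADs, Smad3 (chr9:63646767-63757994, minus strand), which the receptor phosphorylates, was at 121 and 126 CPM in WT and 103 and 106 CPM in cKO. The replicates of each group lay close together and the groups were apart, with a log2 fold change of -0.24 (SE 0.0598, adjusted p = 0.0405). Smad4, the shared partner, was at 165 and 166 CPM in WT and 139 and 147 CPM in cKO. Its groups were apart as well, but the log2 fold change of -0.21 did not pass (adjusted p = 0.0741). Smad2, the other receptor-activated SMAD, was at 57.4 and 57.0 CPM in WT and 54.8 and 53.6 CPM in cKO, a log2 fold change of -0.079 (95% interval -0.23 to 0.069).

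Of the genes that dampen the pathway, the ubiquitin ligase Smurf1 (chr5:144876495-144965847, minus strand) was at 134 and 129 CPM in WT and 90.2 and 80.2 CPM in cKO. The gap between its groups was wider than the spread within either, and the log2 fold change was -0.63 (SE 0.0803, adjusted p = 0.00382). The inhibitory SMAD gene Smad7, itself a known target of the pathway, was at 529 and 448 CPM in WT and 344 and 309 CPM in cKO. Its groups did not overlap, and its log2 fold change of -0.58 (SE 0.101, adjusted p = 0.0123) was 1.49-fold lower, just under the fold threshold. The corepressor gene Ski (chr4:155154075-155222592, minus strand) was at 621 and 579.5 CPM in WT and 536 and 462 CPM in cKO. Its groups were apart, but the log2 fold change of -0.27 did not pass (adjusted p = 0.0687).

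**Figure D2:**
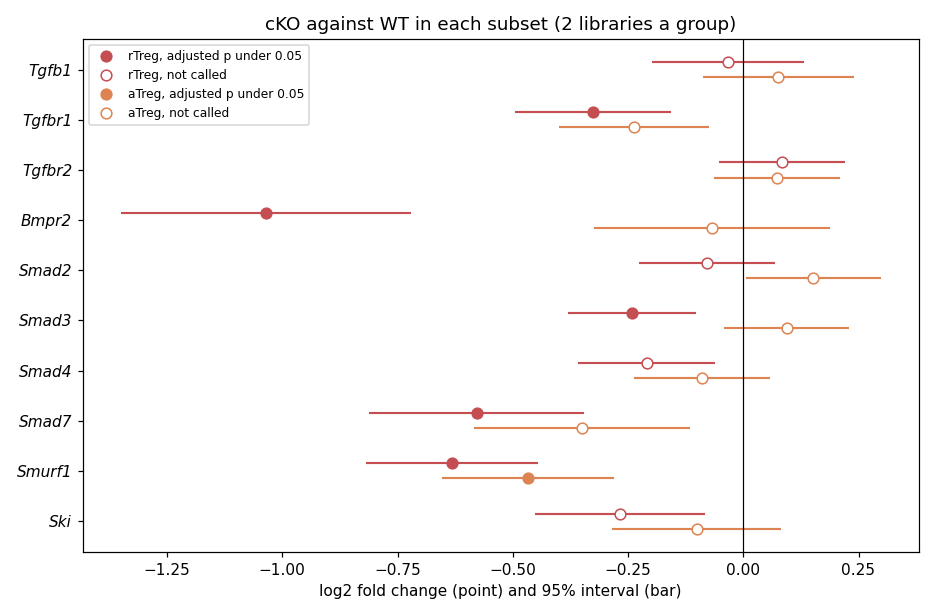
Log2 fold change of cKO against WT for each of the 10 genes in rTreg and in aTreg cells, with 95% intervals as bars and filled points where the adjusted p was under 0.05. In rTreg cells 9 of the 10 points lie below 0 and 5 are filled, and in aTreg cells Smurf1 (-0.47) is the one filled point.

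Other measures moved with the genotype in rTreg cells. The granulocyte markers S100a8, S100a9, Mpo and Elane summed to 0 to 0.368 CPM in WT rTreg and 5.13 to 11.6 CPM in cKO rTreg libraries, with Mpo and Elane at 0 in both WT libraries. The proliferation gene Mki67 was at 8.075 ± 1.91 CPM (SD, n = 2) in WT and 54.4 ± 15.6 CPM in cKO rTreg cells, while Cd44 and Icos, listed with it as markers of activated cells, were at 40.2 ± 7.18 against 30.0 ± 0.488 CPM (adjusted p = 0.0339) and 45.9 ± 4.8 against 40.9 ± 8.24 CPM (adjusted p = 0.41). The resting marker Ccr7 was at 352 ± 62.9 against 255 ± 60.8 CPM (adjusted p = 0.0228). Their part in the results above was not tested. Longer genes tended to be lower in cKO rTreg cells, with Spearman's rho of -0.135 between log2 fold change and gene length across 14540 genes, which are not independent replicates. Bmpr2, with 17983 bases of exon, is as long as or longer than 99.2% of the genes tested, and its log2 fold change was -0.91 with the length trend removed.

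These calls depended on the replicate block and on single libraries. Without the block Smurf1 alone of the 10 was called (adjusted p = 0.025), and the adjusted p was 0.106 for Bmpr2, 0.0743 for Smad7, 0.201 for Tgfbr1 and 0.193 for Smad3. Over 17 alternatives, among them leaving out each library in turn, Smurf1 was called in 16 (adjusted p 7.13e-07 to 0.0625) and Bmpr2 in 15 (3.53e-07 to 0.106). Smad7 was called in 13 (6.13e-07 to 0.128), Tgfbr1 in 12 (0.00417 to 0.201) and Smad3 in 8 (0.0276 to 0.235). Leaving out any 1 rTreg library left 1 library in an arm, and fewer genes were called, both among the 10 and over all genes tested. The fewest were called without cKO rTreg replicate 2. There the log2 fold changes of Smurf1 and Bmpr2 were -0.54 and -1.05, and neither gene was called. The direction of the 5 called genes was the same in all 17.

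**Figure D3:**
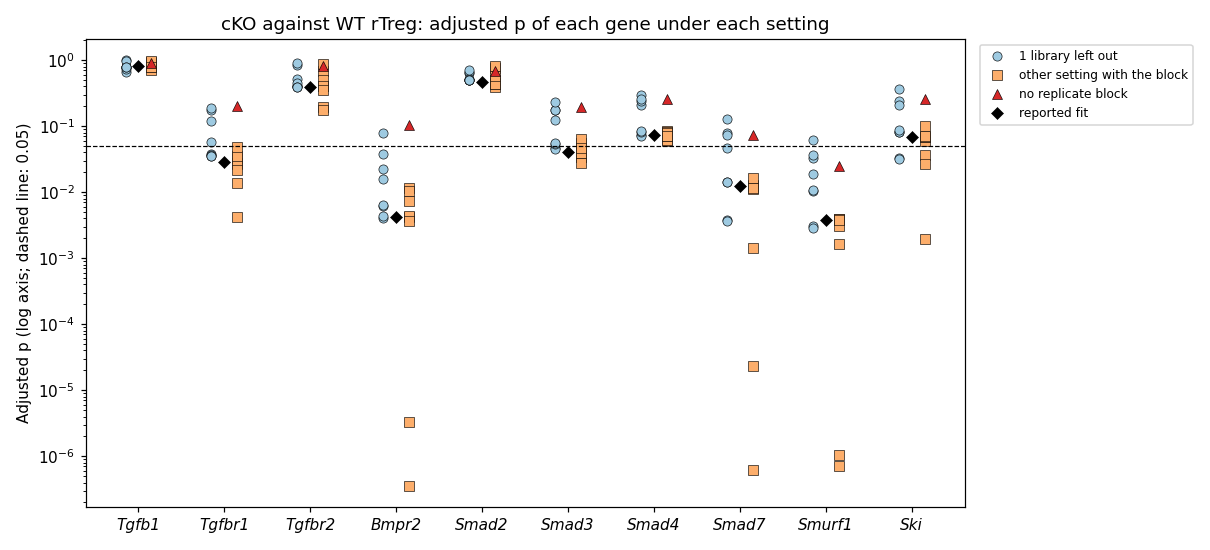
Adjusted p of each of the 10 genes for cKO against WT rTreg cells, on a log axis, in the reported fit and under each alternative, with a dashed line at 0.05. Smurf1 and Bmpr2 lie mostly below the line, Smad3 lies on both sides of it, and Tgfb1, Tgfbr2, Smad2 and Smad4 lie above it in each setting.

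In activated cells the comparison of genotypes called Smurf1, which was at 93.5 and 103 CPM in WT aTreg and 71.0 and 71.2 CPM in cKO aTreg cells. The cKO replicates were nearly equal and lay below both WT libraries, with a log2 fold change of -0.47 (SE 0.0802, adjusted p = 0.0168). Over all genes tested, 2.77% were called lower and 4.11% higher. The groups did not overlap for 4 of the 10 with cKO lower and 2 with cKO higher, against 19.6% and 22.2% of all genes, and the median log2 fold change was -0.078 over the 10 and 0.0018 over all genes. Smurf1 was not called without the block (adjusted p = 0.0918), nor without WT aTreg replicate 2 (0.121), cKO aTreg replicate 1 (0.0818) or cKO aTreg replicate 2 (0.136). It was called in 13 of 17 alternatives, with adjusted p of 0.000349 to 0.136.

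The other genes did not pass in activated cells. Smad7 was at 285 and 245.5 CPM in WT aTreg and 194 and 220.2 CPM in cKO aTreg cells (-0.35, adjusted p = 0.0851), and Tgfbr1 was at 170.4 and 159 against 142 and 137.5 CPM (-0.24, adjusted p = 0.0922). For both, the cKO libraries lay below the WT libraries. Bmpr2 was at 53.65 and 66.9 CPM in WT aTreg and 45.0 and 71.3 CPM in cKO aTreg cells. Its cKO libraries lay on either side of the WT libraries, the log2 fold change was -0.067 (95% interval -0.32 to 0.19), and it was 0.11 without cKO aTreg replicate 1. The granulocyte markers summed to 1.92 to 2.63 CPM in WT aTreg and 2.59 to 24.7 CPM in cKO aTreg libraries, and their part here was not tested. The remaining log2 fold changes ran from -0.10 for Ski to 0.15 for Smad2.

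Whether the genotype effect differed between subsets was tested as an interaction in the same fit, which called 0.330% of all genes and none of the 10. The lowest unadjusted p-values among the 10 were those of Bmpr2 (0.000623), Smad3 (0.00422) and Smad2 (0.0339). DESeq2 called 1 of the 10, with 167 higher and 112 lower among all genes. With limma-voom 0 of the 10 were called, with 21 higher and 22 lower among all genes. For Bmpr2 the effect in aTreg cells was higher than that in rTreg cells by 0.97 on the log2 scale (SE 0.175, adjusted p = 0.0652). It was called in 2 of 16 alternatives, DESeq2 (adjusted p = 0.00963) and no filter on low counts (0.00029), and the adjusted p over all of them was 0.00029 to 0.727. For Smad3 the difference was 0.34 (adjusted p = 0.149) and for Smurf1 0.16 (95% interval -0.10 to 0.43).

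The promoter of Smurf1 is printed because Smurf1 was called in both subsets. An entry of Tgfbr1 is printed because it holds a match to a SMAD motif. Both are RefSeq windows of GRCm38.p6, cut to the bases before the transcription start that lie in no exon of GENCODE M21, and read 5′ to 3′ on the strand of the gene, at chr5:144965848-144966080 (minus) and chr4:47352972-47353221 (plus). Capitals mark the motif.
Smurf1: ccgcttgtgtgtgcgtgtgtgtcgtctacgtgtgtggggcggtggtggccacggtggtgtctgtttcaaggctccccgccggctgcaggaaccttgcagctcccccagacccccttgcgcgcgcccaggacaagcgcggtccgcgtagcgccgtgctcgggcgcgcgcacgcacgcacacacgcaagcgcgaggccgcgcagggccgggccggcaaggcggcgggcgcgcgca
Tgfbr1: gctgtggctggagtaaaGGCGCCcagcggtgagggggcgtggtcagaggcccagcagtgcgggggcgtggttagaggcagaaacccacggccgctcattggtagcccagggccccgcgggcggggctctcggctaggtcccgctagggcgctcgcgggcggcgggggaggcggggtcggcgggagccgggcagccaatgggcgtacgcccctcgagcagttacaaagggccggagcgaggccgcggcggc
The Smurf1 stretch has a GC content of 73.8% with 35 CpG pairs and the Tgfbr1 stretch 74.8% with 29. The median GC content was 52.4% over the 250 bases before the start of all 32851 promoter entries. Another Tgfbr1 entry, at chr4:47385966-47386215 and not printed, has 52.8% with 3 CpG pairs and no match to the SMAD motif.

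Windows from 250 bases before to 50 bases after the start were searched on both strands for 4 short sequences, and 7 of the 10 genes have an entry. The forkhead core TGTTTAC, held by 3.65% of all windows, and the shorter TGTTTA within it, held by 13.4%, had no match in the windows of the 7. Neither had the SMAD palindrome GTCTAGAC, held by 0.213%. The GC-rich SMAD sequence GGCGCC was held by 11.9% of all windows. Counted by gene, 3 of the 7 held it, Tgfbr1, Bmpr2 and Ski, at 233, 105 and 220 bases before the start. Tgfbr1 has another window without a match, and the shares were not matched for GC content. A match is a run of letters and not a bound site, and its absence from a window says nothing of the factor.

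The second comparison asked how activated cells differ from resting cells. In WT cells 3 of the 10 genes were higher and 5 lower in aTreg cells, against 18.2% and 13.6% of all genes. In cKO cells 4 were higher and 3 lower, against 21.9% and 18.2%. A rise of at least 2-fold as well was met by Bmpr2 in each genotype, and by 9.50% of all genes in WT and 11.3% in cKO cells. The median log2 fold change of the 10 was -0.18 in WT and -0.075 in cKO cells, and that of all genes was -0.0046 and -0.018. These comparisons use the same 8 libraries as those between genotypes.

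Of the receptors, Bmpr2 was at 25.1 and 28.4 CPM in WT rTreg and 53.65 and 66.9 CPM in WT aTreg cells, a log2 fold change of 1.16 (SE 0.117, adjusted p = 0.00028). In cKO cells it was at 11.3 and 14.95 against 45.0 and 71.3 CPM, a log2 fold change of 2.13 (SE 0.13, adjusted p = 1.93e-05). In each genotype both aTreg libraries lay above both rTreg libraries. Tgfbr1 rose by 0.67 in WT (adjusted p = 0.000361) and 0.76 in cKO cells (adjusted p = 0.000151), also without overlap. Tgfbr2 had log2 fold changes of -0.14 in WT (adjusted p = 0.108) and -0.15 in cKO cells (adjusted p = 0.0742), with overlapping groups, and did not pass.

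The ligand gene Tgfb1 was at 234 and 229.6 CPM in cKO rTreg and 275 and 285 CPM in cKO aTreg cells, a log2 fold change of 0.27 (SE 0.071, adjusted p = 0.0171). In WT cells it was at 249.2 and 226 against 284 and 249 CPM, and its log2 fold change of 0.17 did not pass (adjusted p = 0.115). The groups were apart in cKO and just overlapped in WT cells, and the interaction of 0.11 (95% interval -0.12 to 0.34) did not show a difference between genotypes.

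Of the SMADs, Smad3 was at 140 and 153 CPM in WT aTreg cells, higher than in WT rTreg cells by 0.25 (adjusted p = 0.016), and at 154 and 159 CPM in cKO aTreg cells, higher than in cKO rTreg cells by 0.58 (adjusted p = 0.000214). Smad4 was at 120.4 and 133 CPM in WT and 119.5 and 119 CPM in cKO aTreg cells, with log2 fold changes of -0.38 (adjusted p = 0.00302) and -0.26 (adjusted p = 0.0132). The groups of both genes were apart in each genotype. Smad2 was at 49.3 and 48.4 CPM in WT aTreg cells, below WT rTreg cells (-0.23, adjusted p = 0.0276), and at 53.7 and 54.7 CPM in cKO aTreg cells, where its log2 fold change was 0.0018 (95% interval -0.15 to 0.15). The interaction for Smad2 was 0.23 (adjusted p = 0.334), so a difference between genotypes was not shown. Smad2 (76241580 to 76310963, plus strand), Smad4 (73639009 to 73703780, minus strand) and Smad7 (75367529 to 75395935, plus strand) lie on chromosome 18 of GRCm38.

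Of the dampening genes, Smad7 was at 529 and 448 CPM in WT rTreg and 285 and 245.5 CPM in WT aTreg cells, a log2 fold change of -0.88 (SE 0.101, adjusted p = 0.000524). In cKO cells it was at 344 and 309 against 194 and 220.2 CPM (-0.65, adjusted p = 0.00165). Its groups stood in the order WT rTreg, cKO rTreg, WT aTreg and cKO aTreg, with no overlap between neighbours. Smurf1 fell in aTreg cells too, with -0.42 in WT (adjusted p = 0.00553) and -0.25 in cKO cells (adjusted p = 0.0391). Ski was at 497 and 465 CPM in WT aTreg cells, a fall from WT rTreg cells (-0.32, adjusted p = 0.0185), and its difference in cKO cells was -0.15 (adjusted p = 0.166).

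**Figure D4:**
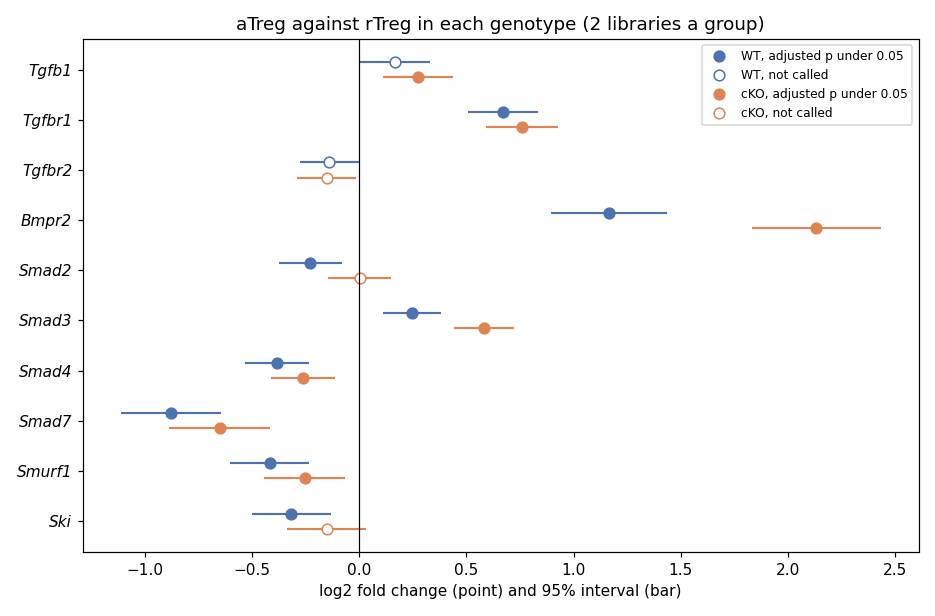
Log2 fold change of aTreg against rTreg cells for each of the 10 genes in WT and in cKO mice, with 95% intervals as bars and filled points where the adjusted p was under 0.05. Bmpr2 lies farthest above 0 (1.16 in WT and 2.13 in cKO) and Smad7 farthest below (-0.88 and -0.65).

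The calls of Bmpr2, Tgfbr1 and Smad7 in both genotypes, of Smad4 in WT and of Smad3 in cKO cells were made in all 17 alternatives. Without the block the adjusted p in WT cells was 0.0952 for Smad2 (0.0017 to 0.158 over the alternatives), 0.0799 for Smad3 (0.0103 to 0.56) and 0.0808 for Ski (0.000306 to 0.113). In cKO cells it was 0.0758 for Tgfb1 (0.000234 to 0.557), 0.0533 for Smad4 (0.000957 to 0.115) and 0.0859 for Smurf1 (0.0013 to 0.322). Smurf1 in WT cells was not called without WT rTreg replicate 1 (adjusted p = 0.0525, over the alternatives 0.000299 to 0.0525). In WT cells the count of calls was 4 without WT rTreg replicate 1, 5 without WT rTreg replicate 2 and 5 without WT aTreg replicate 2, and in cKO cells it was 4 without cKO rTreg replicate 1.

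Genes listed as markers of other cells also differed between subsets. The B cell marker Ighm was at 164 to 239.5 CPM in rTreg and 604 to 772 CPM in aTreg libraries. Cd79b was higher in aTreg libraries as well, at 4.33 to 5.34 against 14.7 to 17.3 CPM, while Cd79a did not pass, at 3.46 to 4.33 against 2.19 to 3.14 CPM, and Ms4a1 averaged at most 0.128 CPM in a group. The NK cell markers Ncr1 and Klrb1c summed to 0 to 0.506 CPM in rTreg and 2.16 to 3.59 CPM in aTreg libraries. Pecam1, listed as an endothelium marker, was at 258 to 293 CPM in rTreg and 111 to 128 CPM in aTreg libraries. Which cells made it was not tested. The stroma markers Col1a1 and Col1a2 were higher in aTreg libraries, with at most 0.393 and 0.0921 CPM in rTreg against 3.35 to 4.385 and 0.9875 to 2.56 CPM. Their part in these results was not tested.

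On the FPKM scale, which allows levels of different genes to be set side by side, Smad7 (107 ± 15.1 FPKM, SD, n = 2) and Ski (107 ± 7.78) were highest in WT rTreg cells and overlapped. Tgfb1 (46.7 ± 4.35 FPKM), Tgfbr2 (46.5 ± 2.14) and Smad4 (44.2 ± 0.806) came next, with Tgfb1 overlapping both of the others. Smad3 (22.1 ± 0.0707 FPKM) and Smurf1 (20.6 ± 1.02) followed without overlap, then Smad2 (16.0 ± 0.445) and Tgfbr1 (15.8 ± 2.49), which overlapped. Bmpr2 was lowest at 1.47 ± 0.0933 FPKM. The length behind the FPKM equals the merged exons of GENCODE M21 for 9 of the 10 genes, and for Smad2 it is 3549 bases against 8781, so the place of Smad2 in the order depends on the gene model.

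The order differed between groups. In WT aTreg cells Ski (88.7 ± 4.57 FPKM) stood above Smad7 (60.2 ± 6.61) and Tgfb1 (54.2 ± 5.31), of which the last pair overlapped. In cKO aTreg cells Smad7 (46.0 ± 2.71 FPKM) lay below Tgfb1 (55.9 ± 0.424) and overlapped with Tgfbr2 (45.1 ± 4.38). Bmpr2 was the lowest of the 10 in each group, between 0.710 ± 0.128 FPKM in cKO rTreg and 3.43 ± 0.517 FPKM in WT aTreg cells.

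**Figure D5:**
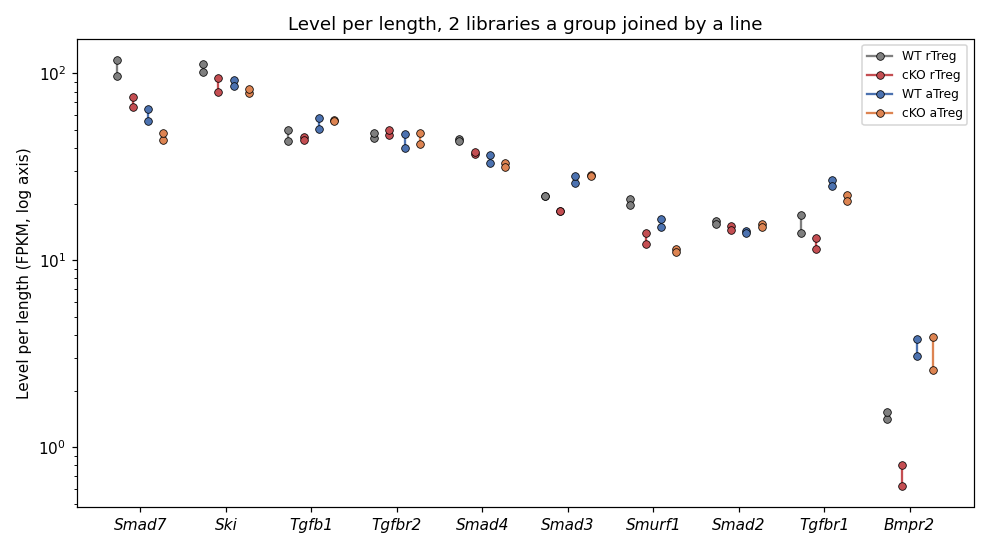
Level per length of each of the 10 genes in FPKM on a log axis, for the libraries of each group. Smad7 and Ski lie near 107 FPKM in WT rTreg cells, and Bmpr2 is the lowest gene in every library.

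The courses of the genes over the 8 libraries are given as Pearson's r of log2 CPM less the mean of the replicate number, as a description, since libraries share groups and replicate numbers. Bmpr2 went with Tgfbr1 (r = 0.975) and Smad3 (0.973), and Smad7 went with Ski (0.954), Smad4 (0.944) and Smurf1 (0.867). Between Smurf1 and Bmpr2 r was -0.181. Among 8959 genes with a mean of at least 10 CPM, those most like Smurf1 were Ice1 (0.9968), Eml5 (0.9945) and Slc12a7 (0.9938), and those most like Bmpr2 were Dubr (0.9984), B4galnt4 (0.9984) and Eml2 (0.9974).

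The rest of the pathway was taken from lists of 70 further genes, of which 68 were in the table and 51 were tested. These lists too were chosen with earlier results known, so the shares beside them are a description. Between genotypes in rTreg cells 10 fell and 2 rose, against 5.45% and 6.57% of all genes. The 1.5-fold threshold was met as well by 6 downward and 2 upward, against 2.70% and 2.90% of all genes. The median log2 fold change of the 51 was -0.16. In aTreg cells 4 fell and 2 rose, against 2.77% and 4.11% of all genes. Of these, 4 and 1 were past the fold threshold, against 1.66% and 2.37% of all genes. Without the block the calls numbered 1 in rTreg and 0 in aTreg cells.

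Of the genes that hold TGF-β latent or release it, Itgb8, an integrin chain that activates TGF-β, was at 12.1 and 14.0 CPM in WT rTreg and 6.85 and 5.49 CPM in cKO rTreg cells (-1.11, adjusted p = 0.0145), with the groups apart. Ltbp4, which binds the latent complex, was called lower too (adjusted p = 0.0403), from 9 and 9 counts in WT and 1 and 2 in cKO rTreg libraries, too few to give a fold. Of the ligands, Bmp7 rose from 6.815 and 10.3 to 14.5 and 14.15 CPM (0.72, adjusted p = 0.022) and Amh fell (-1.39, adjusted p = 0.0451). Of the receptors, the type I receptor Acvr1c (-1.88, adjusted p = 0.0341) and the pseudoreceptor Bambi (-1.06, adjusted p = 0.0381) fell. Amh, Acvr1c and Bambi were each under 10 CPM in every rTreg library. Of 17 alternatives (16 for Ltbp4) the call was made in 14 for Itgb8, 12 for Bmp7, 11 for Acvr1c, 8 for Amh, 7 for Bambi and 5 for Ltbp4. Leaving out either cKO rTreg replicate, which leaves 1 library in that group, ended each of these calls. The log2 fold change of Amh was -1.03 without replicate 1 and -2.47 without replicate 2.

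Of the ubiquitin enzymes, the ligase Wwp1, a relative of Smurf1, rose in both subsets. It was at 31.7 and 39.75 CPM in WT rTreg and 62.6 and 101 CPM in cKO rTreg cells (1.18, SE 0.1, adjusted p = 0.000887), and at 40.3 and 54.3 against 80.5 and 128 CPM in aTreg cells (1.13, SE 0.0962, adjusted p = 0.00154). Its groups did not overlap in either subset, and it was called in 16 of 17 alternatives in each, the exception being the fit without the block (adjusted p = 0.108 and 0.183). Smurf2, the closest relative of Smurf1, had log2 fold changes of 0.014 in rTreg and 0.049 in aTreg cells and did not pass. The deubiquitinase Usp11 fell in rTreg cells (-0.71, adjusted p = 0.0146), and the ligase Nedd4l fell past the fold threshold in aTreg cells (-0.66, adjusted p = 0.0167). These calls were made in 13 of 17 alternatives for Usp11 and 12 for Nedd4l. Nedd4l was also called lower in rTreg cells, short of the fold threshold, with means of 39.2 CPM in WT and 29.2 CPM in cKO.

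The other falls in aTreg cells were of receptors. The co-receptor Tgfbr3 was at 26.4 and 46.9 CPM in WT and 19.2 and 17.0 CPM in cKO aTreg cells (-1.01, adjusted p = 0.0295), and had -0.25 in rTreg cells (adjusted p = 0.465). The activin receptor Acvr1b was at 50.03 and 59.3 against 32.0 and 21.6 CPM (-1.06, adjusted p = 0.0119), and Acvrl1, a type I receptor, at 2.52 and 9.23 against 1.006 and 1.37 CPM (-2.34, adjusted p = 0.0417). The cKO libraries lay below the WT libraries for all 3, and the WT replicates of Tgfbr3 and Acvrl1 were far apart. Without WT aTreg replicate 2 the log2 fold change was -0.58 for Tgfbr3, -1.05 for Acvrl1 and -0.78 for Acvr1b. Without cKO aTreg replicate 2 the values were -0.72 for Tgfbr3, -2.415 for Acvrl1 and -0.80 for Acvr1b. All 3 calls were lost in both fits, each with 1 library in an arm. The call of Acvrl1 was also lost when any 1 rTreg library was left out. Of 17 alternatives Tgfbr3 was called in 11, Acvr1b in 13 and Acvrl1 in 7.

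The listed genes nearest in role to the 10 gave these values. Skil, the relative of Ski, had log2 fold changes of -0.26 in rTreg (adjusted p = 0.088) and -0.024 in aTreg cells (adjusted p = 0.895). Bmpr1a, a type I partner of BMPR2, had -1.16 (adjusted p = 0.105) and 0.039 (adjusted p = 0.95). Its value in rTreg cells came from 19 and 25 counts in WT and 8 and 8 in cKO libraries. With 1 library left out that value ran from -1.63 to -0.62. Lrrc32, which displays latent TGF-β on Treg cells, had 0.35 (adjusted p = 0.0629) and 0.34 (adjusted p = 0.0918). Itgae, which encodes CD103, was at 275 and 369.7 CPM in WT and 366 and 589 CPM in cKO aTreg cells. It rose there by 0.54 (adjusted p = 0.0123) although the groups overlapped, and had -0.43 in rTreg cells (adjusted p = 0.0776). The rise was called in 14 of 17 alternatives, but not without the block (adjusted p = 0.465). Nor was it called without WT aTreg replicate 2 (log2 fold change 0.46) or without cKO aTreg replicate 2 (0.41). Acvr2b did not pass the filter on low counts and was not tested.

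Between subsets 18 of the 51 were higher and 12 lower in WT aTreg cells, against 18.2% and 13.6% of all genes, and 18 and 14 in cKO aTreg cells, against 21.9% and 18.2%. Itgae was at 7.55 and 9.27 CPM in WT rTreg and 275 and 369.7 CPM in WT aTreg cells, and its log2 fold change was 5.26 in WT and 6.24 in cKO cells. Bmp7 (3.22 in WT and 2.75 in cKO cells), Itgb8 (2.80 and 4.16), Id2 (1.63 and 2.17) and Ldlrad4 (1.22 and 1.43) rose by more than 2-fold in both, as did the sparsely counted Ltbp4, Acvr1 and Bmpr1a. Acvrl1 (-1.44 and -4.22) and Nedd4l (-1.40 and -1.63) fell by more than 2-fold in both, as did the sparsely counted Acvr1c. In WT cells the log2 fold change of Acvrl1 was -0.80 without WT aTreg replicate 1 and -2.70 without WT aTreg replicate 2, and the call was lost without the block (adjusted p = 0.0882), without WT rTreg replicate 1 (0.133) and without WT rTreg replicate 2 (0.0557). The integrin chain Itgav (0.95 in WT and 1.29 in cKO cells), the pathway target Pmepa1 (0.74 and 1.07) and the activin receptor gene Acvr2a (0.85 and 1.18) rose in both and past 2-fold in cKO cells alone, and Acvr1b (-0.72 and -1.59) fell likewise. For Acvr2a the value in cKO cells was 0.78 without cKO rTreg replicate 2 (adjusted p = 0.131). The ligand gene Tgfb3 rose in WT cells (adjusted p = 0.0452, called in 8 of 17 alternatives), from 7 and 5 counts in WT rTreg to 19 and 17 in WT aTreg libraries. The co-receptor gene Eng fell in cKO cells (adjusted p = 0.0353, called in 9 of 17), from 9 and 15 counts to 4 and 5. The interaction called 0 of the 51 genes.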

How the data were processed

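RNA was measured in 8 libraries of sorted Treg cells, 2 in each of 4 groups taken from the sample titles. The counts deposited by the authors are whole numbers per Ensembl gene that are not normalized. Per the study's methods they come from htseq-count, run on paired-end reads after quality checks (FastQC), trimming (trim_galore) and removal of duplicates (Picard). The submitters' processing notes name HISAT2 2.0.5, HTSeq and mm10. The authors also deposited FPKM values, which equal the count divided by the library total and by 1 length per gene, and which were used here only to set levels of different genes side by side. Whether counting used strand is not given in the sources used here.

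Counts were fitted with edgeR 4.0.16 in R 4.3.3: TMM factors, filterByExpr with a minimum count of 10, and the quasi-likelihood test on 1 model of all 8 libraries with group and replicate number. P-values were adjusted by Benjamini-Hochberg over all 14540 genes tested, with 0.05 as the threshold and 1.5-fold between genotypes or 2-fold between subsets as a second rule. The study's methods treat the samples as paired, and the labels give each group replicates 1 and 2. As a check, deviations from the group means correlated across genes between libraries of the same number, with r of 0.462 between rTreg genotypes, 0.380 between aTreg genotypes, 0.597 between WT subsets and 0.548 between cKO subsets. With 2 libraries a group these correlations describe the pairing and do not test it.

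The alternatives were no block, limma-voom (limma 3.58.1), DESeq2 1.42.0, RLE factors, all genes kept whatever their counts, a filter of 1 CPM in 2 libraries, the libraries of a comparison alone, gene length offsets, and leaving out each of the 8 libraries. Scripts were tested on simulated counts. The 10 genes were named in every comparison. Of the other pathway genes, the text names those that passed both rules and 7 picked as nearest in role to the 10, and for Smurf1 and Bmpr2 the 3 genes with the most similar course. The 10 genes and all lists were chosen with earlier results of these data known. Coordinates are from GENCODE M21 of GRCm38, which holds 27479 of the 27594 gene identifiers. No exon of the 10 genes shares a base with an exon of another annotated gene. Marker lists for CD8 T cells, myeloid cells, platelets and erythroid cells summed to at most 16.7, 6.45, 10.2 and 3.83 CPM in a library. Some markers of B cells and of the resting state are not reported here.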

Additional observations from a re-analysis of the deposited data

Results flagged for a closer look

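The genotype effect on Foxp1 differed between subsets in the interaction test of edgeR's quasi-likelihood fit: it was -0.12 on the log2 scale in rTreg and -1.03 in aTreg cells, a difference of -0.916 (SE 0.134, adjusted p = 0.0477), below 0 in both replicate numbers. It was called in 6 of 16 alternatives, with adjusted p of 3.78e-06 to 0.288, and not without the replicate block (0.288).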

How the results depend on the processing

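Of the 10 genes, without the replicate block 1 was called between genotypes in rTreg cells, 0 in aTreg cells, and 5 and 4 between subsets in WT and cKO cells, against 5, 1, 8 and 7 with it, and of the other pathway genes 1 in rTreg and 0 in aTreg cells against 12 and 6. Over all genes the block moved the calls between genotypes from 181 and 119 higher and lower to 956 and 792 in rTreg and from 46 and 35 to 598 and 403 in aTreg cells. DESeq2 called 1 of the 10 in the interaction and 7 other pathway genes in rTreg cells. With no filter on low counts 2 of the 10 were called in aTreg cells and 1 in the interaction, and 20 and 12 other pathway genes in rTreg and aTreg cells. A fit to the aTreg libraries alone called 2. The cause of these moves was not tested.

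Leaving out 1 library at a time gave 0 to 5 calls among the 10 in rTreg, 0 to 1 in aTreg, 4 to 8 between WT subsets, 4 to 7 between cKO subsets and 0 to 0 in the interaction, and among the other pathway genes 1 to 14 in rTreg and 1 to 8 in aTreg cells. Where an arm then holds 1 library, that library is assumed to vary like the other groups. In those fits fewer genes were called over all genes tested, in each comparison between genotypes or between subsets. Removing the length trend moved the median of all genes to -0.169 and -0.188 between WT and cKO subsets, with 1978 and 4262 and 2357 and 4800 genes called higher and lower against 2649 and 1982 and 3186 and 2642. Offsets centred in each library, chosen after seeing the data, gave medians of 0.0136 and 0.00497.

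The values that changed direction were all uncalled in the reported fit. They were Smurf2 between rTreg genotypes with DESeq2 (-0.000603) and no filter (-0.00841), Tgfbr2 in the interaction with DESeq2 (0.00430), RLE factors (0.00335) and no filter (0.0217), and with the length trend removed Tgfb1 between WT subsets (-0.0299) and Smad2 between cKO subsets (-0.181, adjusted p = 0.0499, or -0.000298 with centred offsets). Leaving out single libraries gave ranges across 0 for Smurf2 in rTreg (-0.106 to 0.114) and, in aTreg cells, for Smurf2 (-0.0863 to 0.199), Skil (-0.148 to 0.0948), Bmpr1a (-0.108 to 0.205), Bmpr2 (-0.27 to 0.107), Ski (-0.24 to 0.0291) and Tgfb1 (-0.0109 to 0.16), for Smad2 between cKO subsets (-0.023 to 0.0347) and for Tgfbr2 in the interaction (-0.0585 to 0.0465). With 2 libraries a group, intervals on the log2 scale are wide, and a level of 3 counts, the floor used for each library, covers counting error only.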
